A study of Mus musculus with 30 samples.

Results

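Accessibility near mouse genes that encode NK1.1, NKG2 receptors, KLRG1 and NKp46 was followed by ATAC-seq in cultured natural killer (NK) cells. In ATAC-seq a transposase tags open DNA, so the reads in a peak measure how accessible that stretch is, not how much of a nearby gene is transcribed. Every peak that the deposited atlas assigns to Klrb1c, Klrk1, Klrc1, Klrd1, Klrg1 or Ncr1 was taken, 6 genes in all, which gave 35 of 38526 peaks: 7 of Klrb1c, 4 of Klrk1, 4 of Klrc1, 6 of Klrd1, 9 of Klrg1 and 5 of Ncr1. Cells came from spleens of GzmbCre Ptger2-/- Ptger4 fl/fl mice (the KO, labelled EP2/EP4KO) or of C57BL/6J mice (wild type, WT), and all were grown for 5 days with low IL-2 and IL15:IL15Ra. In the KO, Ptger2 is deleted in every cell and Ptger4 carries floxed alleles cut by a Cre that the granzyme B promoter drives. The WT mice carried no Cre, so receptor loss and Cre cannot be told apart. Each genotype had 4 conditions: prostaglandin E2 (PGE2) at 100 ng/ml with stimulation, stimulation untreated, PGE2 resting, and resting untreated. Treatment lasted 5 h, and stimulated cells had 1 h of treatment alone and were then triggered through NK1.1 for 4 h. The 30 libraries gave 4 per group, except 3 each in resting KO untreated and resting WT with PGE2 cells, where replicate 1 is not analysed here. The labels number the replicates but do not say that they came from separate mice or cultures, so the p-values measure only the spread between these libraries, which may be technical.

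NK cells weigh signals from activating and inhibitory receptors before they kill or secrete cytokines. NK1.1 is an activating lectin-like receptor encoded by Klrb1c, and is the receptor that was triggered here. NKG2D, encoded by Klrk1, is an activating receptor for stress-induced ligands such as the RAE-1 and H60 proteins. NKp46, encoded by Ncr1, is an activating immunoglobulin-like receptor that marks NK cells. NKG2A, encoded by Klrc1, pairs with CD94, encoded by Klrd1, into an inhibitory receptor that reads the non-classical MHC molecule Qa-1 on other cells. KLRG1, encoded by Klrg1, is an inhibitory receptor for cadherins that appears on mature NK cells. PGE2 acts on lymphocytes mainly through the cAMP-raising receptors EP2 and EP4, and is known to dampen NK cell functions.

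The promoter sequences that could be matched are shown here because 3 of them lie whole inside a peak described below, and because all carry the same short letters. RefSeq (GRCm38.p6) gave a promoter of 300 bases, from 250 before the start to 50 after it, for 4 of the 6 genes. Klrd1 and Klrg1 were not matched in that table. They are printed 5′ to 3′ on the gene's own strand, with capitals marking the motif matches.
Klrb1c (chr6:128788592-128788891, minus strand): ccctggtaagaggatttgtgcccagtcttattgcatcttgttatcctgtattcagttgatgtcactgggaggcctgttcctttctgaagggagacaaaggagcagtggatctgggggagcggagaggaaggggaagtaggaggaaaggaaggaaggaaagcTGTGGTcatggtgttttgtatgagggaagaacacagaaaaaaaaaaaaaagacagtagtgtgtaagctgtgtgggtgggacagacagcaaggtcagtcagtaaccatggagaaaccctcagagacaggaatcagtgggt
Klrk1 (chr6:129623815-129624114, minus strand): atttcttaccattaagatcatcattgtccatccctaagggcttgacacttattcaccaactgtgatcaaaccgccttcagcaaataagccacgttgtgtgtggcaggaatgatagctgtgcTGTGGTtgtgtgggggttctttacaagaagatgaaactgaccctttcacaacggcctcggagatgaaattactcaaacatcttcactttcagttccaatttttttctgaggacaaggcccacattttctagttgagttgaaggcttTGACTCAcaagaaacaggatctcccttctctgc
Klrc1 (chr6:129678924-129679223, minus strand): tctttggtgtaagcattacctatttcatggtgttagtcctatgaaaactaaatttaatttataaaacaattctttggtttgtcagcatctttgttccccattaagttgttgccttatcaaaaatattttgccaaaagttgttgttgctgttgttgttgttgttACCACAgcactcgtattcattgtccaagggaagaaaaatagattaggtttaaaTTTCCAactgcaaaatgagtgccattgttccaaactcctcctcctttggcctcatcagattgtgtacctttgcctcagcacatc
Ncr1 (chr7:4337465-4337764, plus strand): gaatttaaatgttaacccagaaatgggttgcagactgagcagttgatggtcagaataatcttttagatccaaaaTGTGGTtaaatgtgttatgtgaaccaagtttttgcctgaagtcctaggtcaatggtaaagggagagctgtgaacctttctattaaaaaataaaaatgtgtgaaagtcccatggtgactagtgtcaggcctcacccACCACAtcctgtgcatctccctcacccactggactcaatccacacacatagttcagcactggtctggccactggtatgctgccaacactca
The letters TGTGGT, read on either strand as a RUNX motif, occur in all 4 of these promoters, against 16.8% of the 32851 promoters in the RefSeq table. Ncr1 holds them on both strands. The AP-1 letters TGANTCA occur in the Klrk1 promoter as TGACTCA, against 7.81% of all promoters. The NFAT letters TTTCCA occur in the Klrc1 promoter, against 21.4% of all promoters. None of the matches overlapped another. No match was found on either strand to the T-box letters AGGTGTGA, the ETS letters ACAGGAAG or the CRE letters TGACGTCA, which 1.28%, 3.58% and 1.79% of all promoters hold. The Klrb1c window lies in Klrb1c peak 6 (chr6:128787996-128789061), the Klrk1 window in Klrk1 peak 3 (chr6:129623382-129624276) and the Ncr1 window in Ncr1 peak 3 (chr7:4337228-4340115). Of the Klrc1 window, 128 bases lie in Klrc1 peak 3 (chr6:129678195-129679051). The RUNX letters of the Klrc1 window lie outside that peak, and its NFAT letters lie inside it. Peaks are numbered within each gene in order of increasing coordinate, and coordinates are those of mm10.

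Values are the deposited normalised counts, and a mean over the libraries of 1 group carries its SD. A log2 change is the difference of group means of log2(normalised count + 1), with its standard error (SE), and is read as called at a limma adjusted p under 0.05 over the 38525 peaks tested. In each library the values were whole multiples of 1 step, all within 0.05 of a whole number of steps, so that, if 1 step is 1 read, a library held 8444350 to 20153816 reads in peaks. That depth is inferred, since the smallest value was not 1 step in every library, and no test used it. Of the peaks at the targeted loci, the genotypes did not overlap at the Ptger2 promoter peak, with 83.6 to 247.3 normalised counts in the KO against 560 to 1109 in WT, nor at the Ptger4 exon peak, with 56.2 to 152.3 in the KO and 434 to 685 in WT. They overlapped at the other Ptger4 peaks, such as its promoter peak, with 901 to 1605 in the KO and 822 to 1455 in WT. Of the marker genes chosen for NK cells, 10 of 10 had a promoter peak, with a median of 467 normalised counts per kb, and 2 of the 10 (Klrb1c and Ncr1) are among the receptor genes. Promoter peaks were listed for 1 of 8 T cell markers (Cd28), 0 of 5 B cell markers, 1 of 6 myeloid markers (Cd14) and 2 of 5 ILC2 and ILC3 markers. The T cell list had 474 per kb at its Cd28 peaks, and no promoter peak at Cd3e, Cd3d, Cd3g, Cd4, Cd8a, Cd8b1 or Cd5. Its summed promoter value, Cd28 alone, ranged from 642 to 1271 across libraries. In the KO its mean was 751 with PGE2 and 736 untreated in stimulated cells, and 963 and 908 in resting ones. In WT it was 1135 with PGE2 and 783 untreated in stimulated cells, and 1130.4 and 1055 in resting ones. The ILC2 and ILC3 sum, Il17rb and Kit, ranged from 477 to 871, with WT means of 684 with PGE2 and 543 untreated when stimulated, and 791 and 725 at rest. Like most receptor peaks, both sums were lower in untreated stimulated than resting WT cells. The myeloid sum, Cd14 alone, ranged from 165 to 311. The part of these cells in the results below was not tested.

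The receptor peaks were among the more accessible of the atlas. Their median was 383 normalised counts per kb, against 159.9 over all peaks, and all 35 passed the minimum mean of 10. Of the 35, 16 were intergenic (45.7%, against 27.2% of all peaks), 9 promoter (25.7%, against 31.3%), 8 intronic (22.9%, against 33.0%) and 2 exonic (5.71%, against 8.55%). Per kb, the highest was Klrk1 peak 3, at the start of the NKG2D gene, with 772, and the lowest was the distal Ncr1 peak 1 (chr7:4317825-4318809) with 66.3. The assignment to a gene is the submitters', and some peaks lie near other genes. Klrd1 peak 6 (chr6:129607721-129609999) lies 324 bp from Klrk1, and Klrd1 peak 1 (chr6:129586699-129588643), classed as intergenic, overlaps the start of Klrd1 in RefSeq. Klrg1 peak 9 (chr6:122293634-122296031) lies 10.8 kb from Klrg1 and overlaps Gm6637. Klrb1c and Klrc1 have near-identical relatives next to them, and the sources used here do not say how reads that match several copies were counted.

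**Figure D1:**
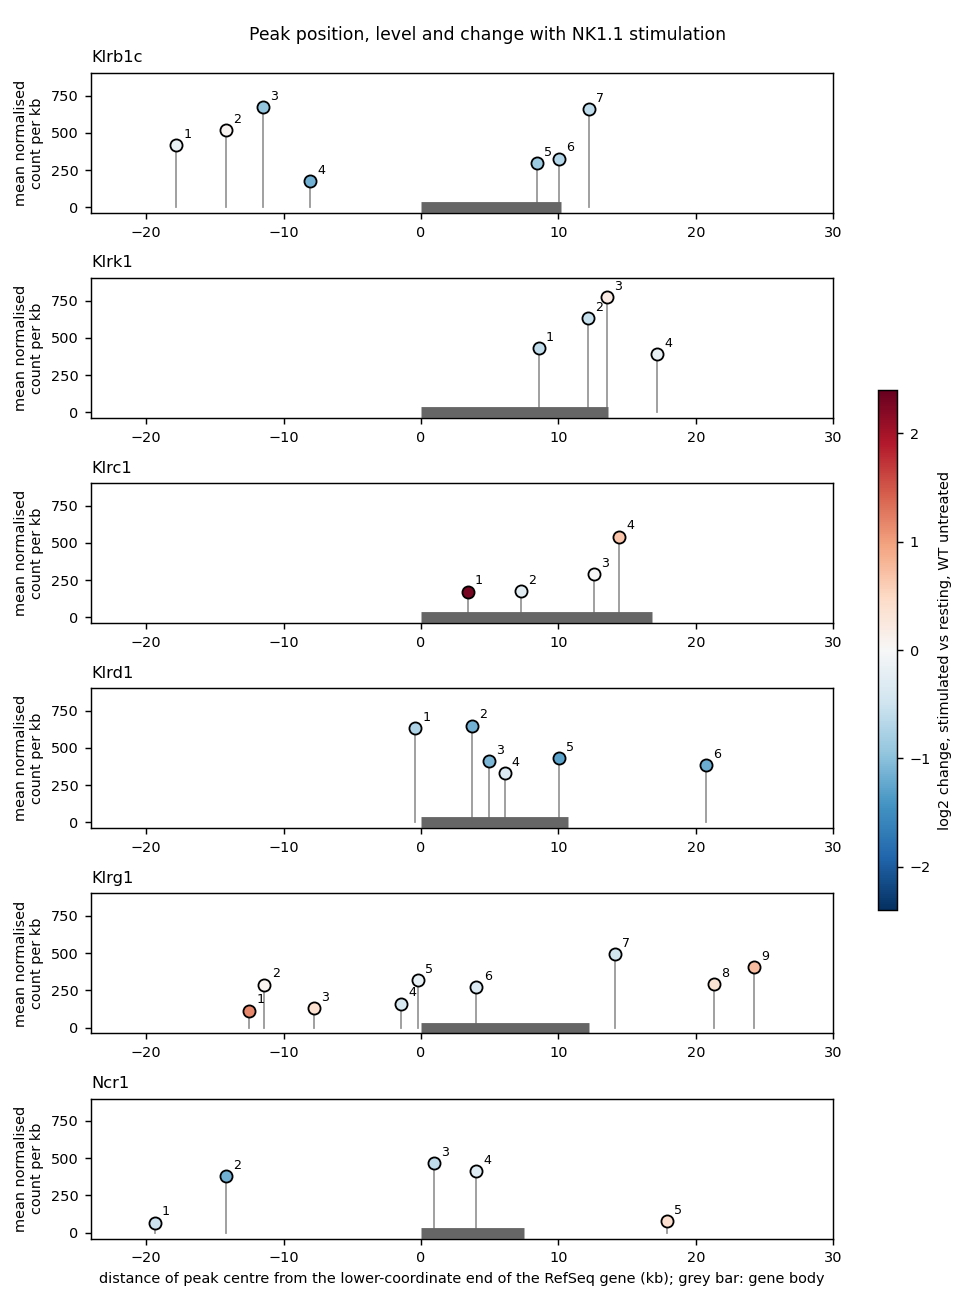
Peaks of the 6 genes by distance in kb of the peak centre from the lower-coordinate end of the RefSeq gene (x axis) and mean normalised count per kb over 30 libraries (y axis). Numbers are the peak numbers used in the text, the grey bar is the gene body, and colour is the log2 change of stimulated against resting untreated WT cells. Klrd1 peaks are blue, lower on stimulation, while Klrc1 peak 1 is the darkest red.

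Triggering NK1.1 lowered accessibility at more receptor peaks than it raised. In untreated KO cells 7 of the 35 peaks were higher and 15 lower on stimulation than at rest, where 28.1% and 26.4% of all tested peaks were. With PGE2, KO cells had 6 higher and 17 lower, against 27.7% and 27.1% of all peaks. Untreated WT cells had 5 higher and 18 lower, against 28.9% and 27.4% of all peaks, and the share called lower was 51.4% of the receptor peaks. The median log2 change over the 35 was -0.34 in untreated WT cells, against -0.02 over all tested peaks. By gene in untreated WT cells, 5 of 7 Klrb1c peaks, 5 of 6 Klrd1 peaks, 3 of 5 Ncr1 peaks and 2 of 4 Klrk1 peaks fell with none rising. Klrg1 was split, with 3 higher and 3 lower of 9, and Klrc1 had 2 higher and 0 lower of 4. WT cells given PGE2 had 1 higher and 6 lower, against 12.7% and 3.80% of all peaks.

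**Figure D2:**
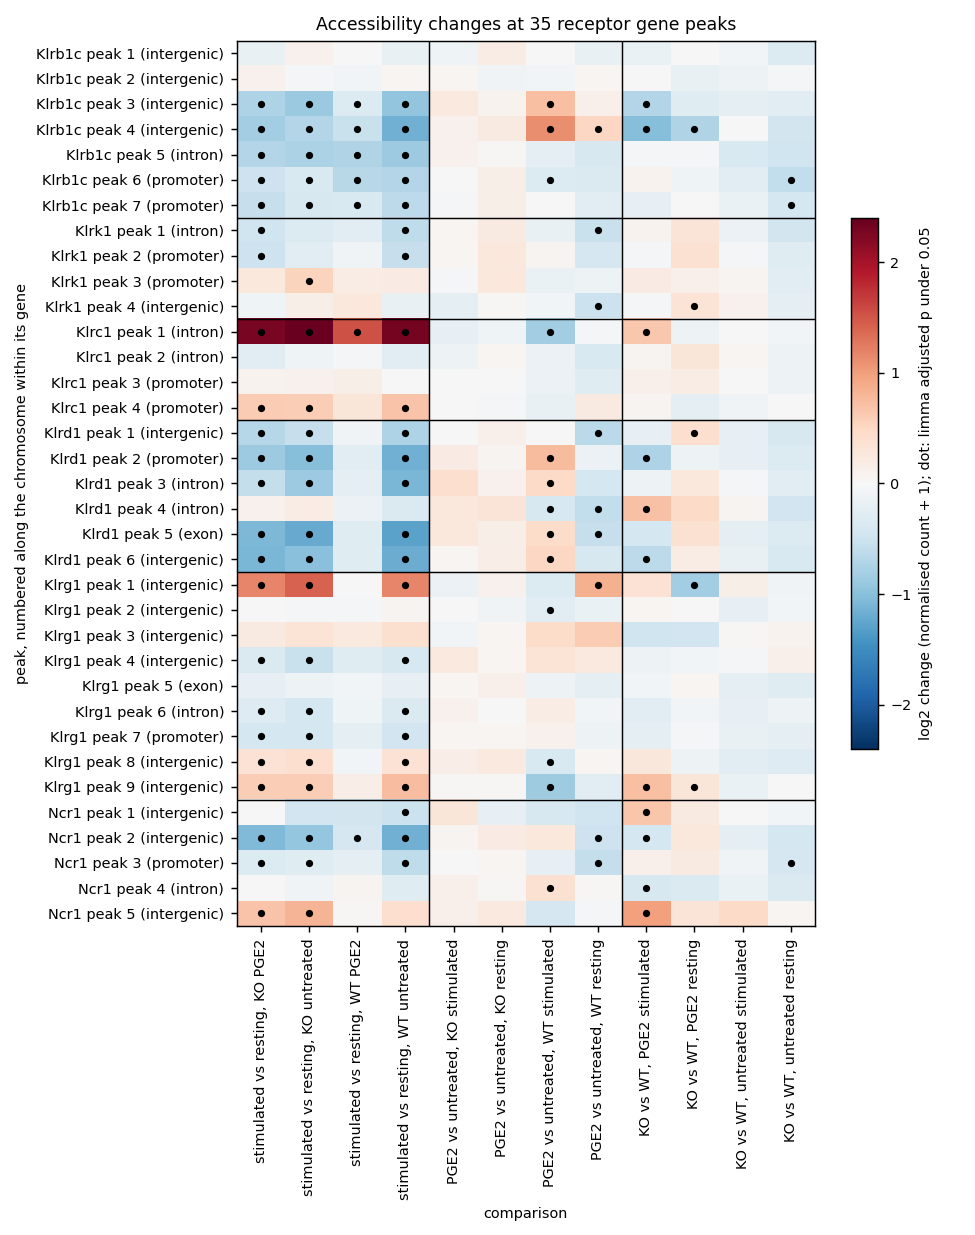
Log2 change of each of the 35 peaks (rows) in 12 comparisons (columns), with red for higher and blue for lower in the first-named condition and a dot where limma called the change. Stimulation columns are mostly blue at Klrb1c, Klrd1 and Ncr1 peaks, and the PGE2 columns of the KO hold no dot.

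PGE2 changed receptor peaks in WT cells, and in a different way with and without stimulation. In stimulated WT cells PGE2 raised 7 and lowered 6 of the 35. These shares, 20% and 17.1%, were near the 20.2% and 20.4% of all peaks. Klrd1 supplied 4 of the 7 that rose and Klrg1 3 of the 6 that fell. In resting WT cells PGE2 raised 2 and lowered 7, against 10.9% and 4.03% of all peaks, and the 7 were 3 Klrd1, 2 Klrk1 and 2 Ncr1 peaks. The median over the 35 was -0.23 at rest, against -0.01 over all peaks. Only 1 peak was called higher in both states (Klrb1c peak 4) and 1 lower in both (Klrd1 peak 4), while Klrd1 peak 5 was called higher with stimulation and lower without. The test of the difference itself, the PGE2 change in stimulated minus that in resting WT cells, called 10 peaks positive and 3 negative, against 10.6% and 14.7% of all peaks. The 10 were 5 of Klrd1, 2 each of Klrb1c and Ncr1, and 1 of Klrk1. Some counts rest on single libraries. The 7 lower at rest were 3 without WT PGE2 resting replicate 3, and 4 without either WT PGE2 resting replicate 4 or WT untreated resting replicate 2. The 2 higher at rest were 1 without WT PGE2 resting replicate 2 or 3 or WT untreated resting replicate 1 or 4. The 6 lower with stimulation were 2 without WT PGE2 stimulated replicate 1 or 3, and 3 without WT untreated stimulated replicate 2. The 6 lower on stimulation with PGE2 were 2 without WT PGE2 resting replicate 2 and 3 without replicate 4, and the 1 higher was 3 without WT PGE2 resting replicate 2 or WT PGE2 stimulated replicate 4.

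No receptor peak was called for PGE2 in the KO. With stimulation, limma called 0 of the 35 in KO cells, with log2 changes of -0.22 to 0.40 and an unadjusted p under 0.05 at 3, and over all peaks it called 0.0026% higher and 0% lower. At rest it called 0 of the 35, with changes of -0.19 to 0.32 and an unadjusted p under 0.05 at 1, and 0% of all peaks in either direction. The PGE2 change in the KO minus that in WT was called positive at 4 and negative at 3 receptor peaks with stimulation. These shares, 11.4% and 8.57%, were near the 9.80% and 10.2% of all peaks. At rest it was called positive at 6 and negative at 0, against 1.24% and 4.94% of all peaks. The 6 at rest were 3 without KO untreated resting replicate 2 or WT PGE2 resting replicate 3. With stimulation the 4 positive calls were 1 without KO untreated stimulated replicate 4 or WT PGE2 stimulated replicate 1 or 3. They were 2 without KO PGE2 stimulated replicate 2 or 4, KO untreated stimulated replicate 3, WT PGE2 stimulated replicate 4 or WT untreated stimulated replicate 1 or 4. The 3 negative calls were 1 without KO PGE2 stimulated replicate 3.

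**Figure D3:**
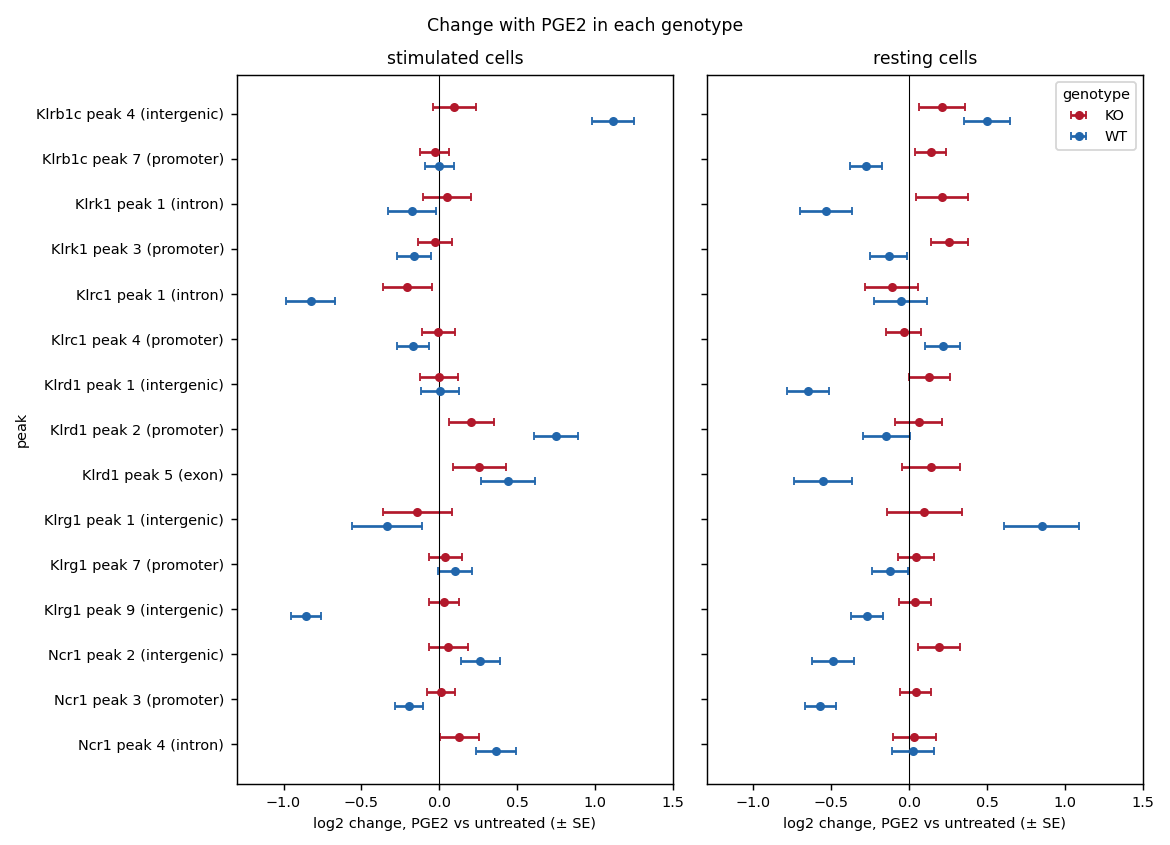
Log2 change ± SE of PGE2 against untreated cells (x axis) at 15 named peaks (rows) in KO (red) and WT (blue) cells, stimulated on the left and resting on the right. No KO point was called, while WT points reach 1.11 at Klrb1c peak 4 and -0.86 at Klrg1 peak 9 with stimulation.

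The stimulation change of untreated cells was not called different between KO and WT at any of the 35 peaks, with an unadjusted p under 0.05 at 4, against 0.0026% of all peaks positive and 0.00519% negative. In stimulated cells with PGE2, KO had 5 receptor peaks higher and 6 lower than WT (14.3% and 17.1% of the 35), against 20.5% and 19.7% of all peaks. In resting cells with PGE2 it had 3 higher and 2 lower (8.57% and 5.71% of the 35), against 5.46% and 8.99% of all peaks. With so few peaks called, neither pair of shares is read as a difference from all peaks. In stimulated untreated cells limma called 0 of the 35, with an unadjusted p under 0.05 at 4, against 0.379% of all peaks higher and 0.345% lower. In resting untreated cells the KO had 0 higher and 3 lower (8.57% of the 35), against 1.09% and 0.636% of all peaks, and 31 of the 35 log2 differences were negative with a median of -0.28. The 3 lower were Klrb1c peaks 6 and 7 and Ncr1 peak 3, and none was called without KO untreated resting replicate 3, while 1 was without WT untreated resting replicate 1. The KO group of this contrast has no replicate 1. With the replicate number as a block the 3 differences shrank from -0.59, -0.42 and -0.40 to -0.55, -0.39 and -0.37, and stayed called. The 3 higher at rest with PGE2 were 0 without WT PGE2 resting replicate 3, and 1 without WT PGE2 resting replicate 4 or KO PGE2 resting replicate 1, 2 or 4. The 2 lower there were 1 without WT PGE2 resting replicate 4.

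Klrb1c, the gene of the receptor that was triggered, was less accessible on stimulation at 5 of its 7 peaks (3 to 7) in both genotypes, with and without PGE2. Summed over the 7 peaks, the normalised count was lowest in stimulated KO untreated cells (2445 ± 147) and highest in resting WT untreated cells (4025 ± 175). The largest PGE2 changes of the gene in WT cells, with and without stimulation, were at peak 4 (chr6:128769544-128771262), which lies 7.22 kb beyond the 3′ end of the gene. Klrb1c peak 4 had 171, 252, 137 and 193 normalised counts in stimulated KO cells with PGE2 and 168, 211, 139 and 176 in untreated ones. At rest, Klrb1c peak 4 had 368, 354, 285 and 305 in KO cells with PGE2 and 252, 298 and 297 in untreated ones. The PGE2 and untreated libraries of the KO overlapped in both states, and the stimulated ones lay below the resting ones at either treatment. WT values of Klrb1c peak 4 were 407, 357, 375 and 351 normalised counts in stimulated cells with PGE2 and 162, 228, 155 and 150.1 in untreated ones. Without stimulation, Klrb1c peak 4 had 581, 558 and 484 in WT cells with PGE2 and 378, 422, 380.0 and 349 in untreated ones. Every WT library with PGE2 lay above every untreated one in the same state, and every stimulated one below the resting ones at the same treatment.

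Peak 4 of Klrb1c fell on stimulation with a log2 change of -0.71 ± 0.15 in untreated KO cells (limma adjusted p = 0.000102) and of -1.15 ± 0.14 in untreated WT cells (limma adjusted p = 4.38e-09). The PGE2 change in stimulated KO cells was 0.10 ± 0.14 (limma adjusted p = 0.999). PGE2 raised the peak in stimulated WT cells, with 373 ± 24.9 normalised counts against 174 ± 36.3 untreated, a log2 change of 1.11 ± 0.14 (limma adjusted p = 2.8e-08). The KO change minus the WT change was -1.02 ± 0.19 (limma adjusted p = 0.00019). At rest PGE2 gave 541 ± 50.9 in WT cells against 382 ± 30.1 untreated, a change of 0.50 ± 0.15 (limma adjusted p = 0.0166), which was lost without WT PGE2 resting replicate 2 or 3 or WT untreated resting replicate 4 (adjusted p up to 0.0837) and under quantile normalisation (0.0522). Its neighbour peak 3 (chr6:128766495-128767399) had a PGE2 change of 0.72 ± 0.10 in stimulated WT cells (limma adjusted p = 5.55e-07) and 0.11 ± 0.11 at rest (limma adjusted p = 0.59). On stimulation of WT cells with PGE2, the calls at Klrb1c peaks 3, 4 and 7 were each lost without WT PGE2 resting replicate 2, those at 3 and 7 also without replicate 4, and that at 3 without WT PGE2 stimulated replicate 1 or 4 (adjusted p up to 0.141). The call at peak 6 in untreated KO cells was lost without KO untreated stimulated replicate 3 or 4 or KO untreated resting replicate 4 (adjusted p up to 0.107). The outer peaks 1 (chr6:128760079-128761275) and 2 (chr6:128763724-128764876) were called in none of the 16 comparisons.

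At the Klrb1c promoter, peak 7 (chr6:128790350-128791017) is the more accessible of its 2 promoter peaks and lies 1.71 kb before the RefSeq start. Klrb1c peak 7 had 322, 358, 345 and 338 normalised counts in stimulated KO cells with PGE2 and 415, 328, 357 and 300.2 in untreated ones. At rest, Klrb1c peak 7 had 565, 517, 487 and 432 in KO cells with PGE2 and 485, 425 and 449 in untreated ones. The stimulated KO libraries were the lower ones at either treatment. WT values of Klrb1c peak 7 were 384, 421, 397 and 355 normalised counts in stimulated cells with PGE2 and 435, 417, 353 and 356 in untreated ones. Without stimulation, Klrb1c peak 7 had 526, 449.6 and 527 in WT cells with PGE2 and 628, 585, 570.4 and 639 in untreated ones. Here too all stimulated libraries lay below the resting ones at the same treatment, with a log2 change of -0.64 ± 0.09 in untreated cells (limma adjusted p = 3.08e-07). PGE2 left peak 7 uncalled in WT cells, with -0.00 ± 0.09 when stimulated (limma adjusted p = 0.999) and -0.28 ± 0.10 at rest (limma adjusted p = 0.0618). The promoter peaks 6 and 7 and the intronic peak 5 (chr6:128786380-128787507) had PGE2 changes at or below 0 in stimulated WT cells. Of these only peak 6, which holds the printed promoter, was called, with a log2 change of -0.32 (limma adjusted p = 0.0349). That call was lost without WT PGE2 stimulated replicate 1, 2 or 3 or WT untreated stimulated replicate 1 or 2 (adjusted p up to 0.140). Peaks 3 and 4 on the other side of the gene rose with PGE2 in these cells.

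Klrk1, the NKG2D gene, was called higher on stimulation at its strongest promoter peak in untreated KO cells only. In untreated WT cells its peaks 1 and 2 were called lower on stimulation. The levels of the gene summed over 4 peaks ran from 1837 ± 289 in resting WT cells with PGE2 to 2386 ± 199.8 in resting WT untreated cells. At the promoter, peak 3 had 814, 786, 807 and 687 normalised counts in stimulated KO cells with PGE2 and 936, 741, 722 and 764 untreated. At rest, Klrk1 peak 3 had 726, 748, 578 and 572 in KO cells with PGE2 and 500.0, 613 and 526 in untreated ones. Only the untreated KO groups separated by stimulation, with every stimulated library above the resting ones. WT values of Klrk1 peak 3 were 681, 696, 672 and 649.6 normalised counts in stimulated cells with PGE2 and 899, 743, 716 and 683 in untreated ones. Without stimulation, Klrk1 peak 3 had 741, 483 and 599 in WT cells with PGE2 and 734, 684, 554 and 664 in untreated ones. All pairs of WT groups compared overlapped at this promoter. Its stimulation change was 0.53 ± 0.12 in untreated KO cells (limma adjusted p = 0.000256) and 0.20 ± 0.11 in untreated WT cells (limma adjusted p = 0.113), and the KO minus WT difference of these changes was 0.33 ± 0.16 (limma adjusted p = 1.00).

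Inside Klrk1, the intronic peak 1 (chr6:129618202-129619569) differed with PGE2 at rest. Klrk1 peak 1 had 599, 604, 419 and 405 normalised counts in stimulated KO cells with PGE2 and 617, 586, 358 and 411 in untreated ones. At rest, Klrk1 peak 1 had 864, 779.7, 591 and 595 in KO cells with PGE2 and 577, 613 and 617 in untreated ones. In 3 of these 4 KO groups the libraries spread into a higher and a lower pair, replicates 1 and 2 lying above 3 and 4, and the groups overlapped. WT values of Klrk1 peak 1 were 566, 582, 392 and 377 normalised counts in stimulated cells with PGE2 and 624, 562, 480.3 and 469 in untreated ones. Without stimulation, Klrk1 peak 1 had 634, 508 and 549 in WT cells with PGE2 and 846, 845, 764 and 799 in untreated ones. Resting untreated WT libraries were the highest of the 4 WT groups, with no overlap. Replicates 1 and 2 again lay above 3 and 4 in the 3 WT groups that have all 4, and with the replicate number as a block the PGE2 change at rest was -0.45 (a call kept, against -0.53 ± 0.17 without the block). PGE2 lowered it at rest in WT cells with a change of -0.53 ± 0.17 on the log2 scale (limma adjusted p = 0.0223), a call lost without WT PGE2 resting replicate 3 or 4 or WT untreated resting replicate 1 or 2 (adjusted p up to 0.127). The intergenic peak 4 (chr6:129626942-129628098), 3.04 kb before the gene, also fell with PGE2 in resting WT cells, to 365 ± 58.0 normalised counts against 517 ± 46.3 untreated, a log2 change of -0.51 ± 0.10 (limma adjusted p = 0.000233). That call held in each fit without 1 library (adjusted p up to 0.0127). No Klrk1 peak was called for PGE2 in stimulated WT cells. Untreated stimulation of WT cells lowered peak 1 with a log2 change of -0.61 (limma adjusted p = 0.000778). It lowered the promoter peak 2 (chr6:129622252-129622747) with a log2 change of -0.55 (limma adjusted p = 0.002). In KO cells with PGE2 both falls were called, at -0.49 each, and neither was called in untreated KO cells or in WT cells with PGE2.

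Ncr1, the NKp46 gene, had its highest accessibility in resting WT untreated cells, where the sum over its 5 peaks was 2947 ± 145 normalised counts. The lowest sum was 1771 ± 184, in stimulated KO untreated cells. Peak 3, a broad promoter peak that holds the printed promoter, had 1293, 1399, 1015 and 1060.5 normalised counts in stimulated KO cells with PGE2 and 1310.3, 1230.0, 1079 and 1088 untreated. At rest, Ncr1 peak 3 had 1637, 1596, 1332 and 1369 in KO cells with PGE2 and 1541, 1336 and 1433 in untreated ones. PGE2 and untreated KO libraries overlapped in both states. WT values of Ncr1 peak 3 were 1182, 1168, 975 and 1024 normalised counts in stimulated cells with PGE2 and 1292, 1269.9, 1203 and 1198 in untreated ones. Without stimulation, Ncr1 peak 3 had 1324, 1139.7 and 1379 in WT cells with PGE2 and 1867, 2053, 1766 and 1916 in untreated ones. The resting untreated WT libraries stood above all 26 other libraries. The log2 change of PGE2 against untreated cells at the Ncr1 promoter was, in the resting KO, 0.04 ± 0.10 (limma adjusted p = 1.00). PGE2 lowered it in resting WT cells, with a change of -0.57 ± 0.10 on the log2 scale (limma adjusted p = 4.44e-05), and this call held without any 1 library (adjusted p up to 0.00185). The KO minus WT difference was 0.61 ± 0.14 (limma adjusted p = 0.00405), and 0.55 with the replicate number as a block, a call kept. Stimulation lowered peak 3 with a log2 change of -0.29 ± 0.10 in untreated KO cells (limma adjusted p = 0.0129, and 0.0734 without KO untreated resting replicate 2) and with a log2 change of -0.61 ± 0.09 in untreated WT cells (limma adjusted p = 4.36e-07). In resting untreated cells the KO was lower than WT, with 1437 ± 102 against 1900.3 ± 119 and a difference of -0.40 ± 0.10 (limma adjusted p = 0.0247). That call was lost without KO untreated resting replicate 3 or 4 or WT untreated resting replicate 1 or 2 (adjusted p up to 0.163), and under quantile normalisation (0.0525).

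Of the distal Ncr1 peaks, peak 2 (chr7:4323025-4324007) lies 13.7 kb before the gene. Ncr1 peak 2 had 266, 303, 201 and 204 normalised counts in stimulated KO cells with PGE2 and 297, 265, 174 and 206 in untreated ones. At rest, Ncr1 peak 2 had 540.2, 496, 433 and 548 in KO cells with PGE2 and 414, 479.9 and 426 in untreated ones. Stimulated KO libraries all lay below the resting ones. WT values of Ncr1 peak 2 were 344, 332, 315 and 289.8 normalised counts in stimulated cells with PGE2 and 277, 306, 242 and 246 in untreated ones. Without stimulation, Ncr1 peak 2 had 427, 388 and 448 in WT cells with PGE2 and 602, 623, 571 and 568 in untreated ones. PGE2 libraries were the lower ones at rest, and overlapped the untreated ones on stimulation. Stimulation lowered it with a log2 change of -0.93 ± 0.14 in untreated KO cells (limma adjusted p = 3.07e-07) and with a log2 change of -1.15 ± 0.13 in untreated WT cells (limma adjusted p = 5.38e-10). The PGE2 change at rest in WT cells was -0.49 ± 0.14 (limma adjusted p = 0.00924), lost without WT PGE2 resting replicate 3 (adjusted p 0.0663).

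The intronic Ncr1 peak 4 (chr7:4341374-4342108) was the one peak of the gene called for PGE2 in stimulated WT cells. Ncr1 peak 4 had 265, 368, 244 and 251 normalised counts in stimulated KO cells with PGE2 and 243, 291, 209.5 and 280.0 in untreated ones. At rest, Ncr1 peak 4 had 329.7, 313, 228 and 251 in KO cells with PGE2 and 334, 241 and 247 in untreated ones. All KO groups overlapped. WT values of Ncr1 peak 4 were 387, 360.3, 353 and 362 normalised counts in stimulated cells with PGE2 and 318, 297, 239 and 286 in untreated ones. Without stimulation, Ncr1 peak 4 had 360.1, 326 and 368 in WT cells with PGE2 and 385, 335, 338 and 326 in untreated ones. Stimulated untreated WT libraries were the lowest of the 4 WT groups. The PGE2 change in stimulated WT cells was 0.36 ± 0.13 (limma adjusted p = 0.0193), lost without WT PGE2 stimulated replicate 1 or WT untreated stimulated replicate 3 (adjusted p up to 0.0975). Peak 5 (chr7:4355420-4355832), which had the lowest mean count of the 35 (32.5), was higher in KO than WT cells under PGE2 and stimulation, with 49.0 ± 5.87 against 24.4 ± 3.65 normalised counts (log2 difference 0.98 ± 0.24, limma adjusted p = 0.00119).

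Klrd1, the CD94 gene, moved together at most of its peaks. Stimulation lowered 5 of its 6 peaks in untreated WT cells, and PGE2 raised 4 of those 5 when present during stimulation. PGE2 lowered 3 of the 6 in resting WT cells. In stimulated KO cells 5 of the 6 PGE2 changes were positive, with a median of 0.23, and none was called. The KO minus WT difference with stimulation was called at peaks 2 and 4, and not at peaks 3, 5 and 6, which PGE2 raised in WT. Summed over the 6 peaks, stimulated cells had 2486 ± 509.6 normalised counts in the KO with PGE2 and 2291 ± 454 untreated. Resting KO cells had 4195 ± 536 with PGE2 and 3797 ± 82.3 untreated. In WT the sums were 3064 ± 432 in stimulated cells with PGE2 and 2527 ± 217 untreated. Resting WT cells had 3500.1 ± 314 with PGE2 and 4866 ± 376 untreated. With PGE2 the means of the 2 WT states lay closer together than without it. Peak 2 (chr6:129591488-129592117) is classed as promoter in the atlas and lies inside the RefSeq gene. It had 313, 344, 222 and 215 normalised counts in stimulated KO cells with PGE2 and 302, 278, 174 and 198 untreated. At rest, Klrd1 peak 2 had 574, 564, 416 and 429 in KO cells with PGE2 and 541, 423 and 453 in untreated ones. Replicates 1 and 2 lay above 3 and 4 in the 3 KO groups that have all 4. WT values of Klrd1 peak 2 were 480.2, 499, 393 and 429 normalised counts in stimulated cells with PGE2 and 308, 272, 236 and 253 in untreated ones. Without stimulation, Klrd1 peak 2 had 551, 521 and 534 in WT cells with PGE2 and 615, 589.9, 599 and 567 in untreated ones. Replicates 1 and 2 were also the higher ones in both stimulated WT groups, where every library with PGE2 exceeded every untreated one.

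Klrd1 peak 2 fell on stimulation with a log2 change of -1.01 ± 0.15 in untreated KO cells (limma adjusted p = 5.72e-07). In untreated WT cells the log2 change was -1.15 ± 0.14 (limma adjusted p = 7.86e-09). With PGE2 present the WT change was -0.26 ± 0.15 (limma adjusted p = 0.283). In stimulated KO cells the PGE2 change of this peak was 0.21 ± 0.14 (limma adjusted p = 0.999). PGE2 raised it in stimulated WT cells with a log2 change of 0.75 ± 0.14 (limma adjusted p = 4.52e-05). The KO minus WT difference was -0.54 ± 0.20 (limma adjusted p = 0.0497). That difference was lost in 10 of 16 fits that each left out 1 library, namely KO PGE2 stimulated replicate 3 or 4, KO untreated stimulated replicate 1 or 2, WT PGE2 stimulated replicate 1, 2 or 4, or WT untreated stimulated replicate 2, 3 or 4 (adjusted p up to 0.143). It was also lost within only the compared groups (adjusted p = 0.0910) and under quantile normalisation (0.0697), and with the replicate number as a block it held (0.00219). In stimulated cells with PGE2 the KO had 274 ± 64.7 normalised counts against 450.3 ± 48.0 in WT, a difference of -0.74 ± 0.14 (limma adjusted p = 5.63e-05).

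Peak 5 of Klrd1 (chr6:129597784-129598491), an exonic peak, had the largest stimulation change of the gene in untreated cells. Klrd1 peak 5 had 246, 266, 159.6 and 155 normalised counts in stimulated KO cells with PGE2 and 212, 229.7, 121 and 134 in untreated ones. At rest, Klrd1 peak 5 had 468, 480.5, 375 and 390.2 in KO cells with PGE2 and 409, 377 and 374 in untreated ones. Stimulated libraries were all below the resting ones in the KO. WT values of Klrd1 peak 5 were 354, 312, 220.1 and 213 normalised counts in stimulated cells with PGE2 and 241, 202, 182 and 171 in untreated ones. Without stimulation, Klrd1 peak 5 had 341, 293 and 361 in WT cells with PGE2 and 514, 502, 459 and 463 in untreated ones. PGE2 and untreated WT libraries overlapped on stimulation and did not at rest. Its stimulation change was -1.20 ± 0.19 in untreated KO cells (limma adjusted p = 9.57e-07) and -1.29 ± 0.17 in untreated WT cells (limma adjusted p = 4.48e-08). The PGE2 change was 0.44 ± 0.17 in stimulated WT cells (limma adjusted p = 0.0379) and -0.55 ± 0.19 in resting WT cells (limma adjusted p = 0.0393). The stimulated call was lost without WT PGE2 stimulated replicate 1 or 2 or WT untreated stimulated replicate 2, 3 or 4 (adjusted p up to 0.186), and the resting call without any 1 of the 7 libraries compared (adjusted p up to 0.189). Under quantile normalisation neither was called, with an adjusted p of 0.0509 when stimulated and 0.0701 at rest. With the replicate number as a block both calls were kept. The changes were then 0.44 when stimulated (limma adjusted p = 0.00155) and -0.46 at rest (limma adjusted p = 0.00596). Without the block, the difference between the 2 PGE2 changes was 0.99 ± 0.25 (limma adjusted p = 0.00342).

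Peak 1 of Klrd1, at the RefSeq start and the most accessible of the gene by total count, fell with PGE2 at rest. Klrd1 peak 1 had 1057, 1039, 801 and 878 normalised counts in stimulated KO cells with PGE2 and 1125, 1125, 783 and 785 in untreated ones. At rest, Klrd1 peak 1 had 1796, 1729, 1257 and 1302 in KO cells with PGE2 and 1379, 1334 and 1406 in untreated ones. The treatments overlapped in the KO. WT values of Klrd1 peak 1 were 1115, 1283, 918 and 1026 normalised counts in stimulated cells with PGE2 and 1130.3, 1212, 949.6 and 1019 in untreated ones. Without stimulation, Klrd1 peak 1 had 1265, 1014 and 1145 in WT cells with PGE2 and 1876, 1978, 1643 and 1658 in untreated ones. Resting untreated WT libraries were apart from the other 3 WT groups. In stimulated WT cells PGE2 left peak 1 uncalled, with 1086 ± 154 normalised counts against 1078 ± 116 untreated. The PGE2 change at rest was 0.13 ± 0.13 in KO cells (limma adjusted p = 1.00) and -0.65 ± 0.13 in WT cells (limma adjusted p = 0.000387), and the KO minus WT difference was 0.78 ± 0.19 (limma adjusted p = 0.00633). The WT call held without any 1 library (adjusted p up to 0.0086). With the replicate number as a block the WT change was -0.60 and the KO minus WT difference 0.68, both calls kept. Peak 4 (chr6:129593855-129594513), in an intron, differed from the rest of the gene, with a PGE2 change of -0.39 ± 0.16 in stimulated WT cells (limma adjusted p = 0.0466) and no call on untreated stimulation in WT. Its call at rest was lost without WT PGE2 resting replicate 3 or 4 or WT untreated resting replicate 2 (adjusted p up to 0.0662). The stimulated call was lost without WT PGE2 stimulated replicate 1, 3 or 4 or WT untreated stimulated replicate 2, 3 or 4 (adjusted p up to 0.153), and with library total scaling (0.0745).

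Klrc1, the NKG2A gene, gained accessibility on stimulation at 2 of its 4 peaks. Its sum over 4 peaks ranged from 796 ± 102 normalised counts in resting KO cells with PGE2 to 1279.6 ± 49.0 in stimulated WT untreated cells. The larger change was at the intronic peak 1 (chr6:129669006-129669823). Klrc1 peak 1 had 205, 182, 303 and 227 normalised counts in stimulated KO cells with PGE2 and 265, 248, 268 and 258 in untreated ones. At rest, Klrc1 peak 1 had 51.4, 36.3, 49.2 and 46.0 in KO cells with PGE2 and 36.3, 63.0 and 51.6 in untreated ones. Stimulated and resting KO libraries were far apart, and PGE2 and untreated ones overlapped. WT values of Klrc1 peak 1 were 150.1, 164, 131 and 134 normalised counts in stimulated cells with PGE2 and 259, 249, 253 and 265 in untreated ones. Without stimulation, Klrc1 peak 1 had 48.0, 58.5 and 42.5 in WT cells with PGE2 and 47.1, 58.3, 55.0 and 45.4 in untreated ones. WT cells stimulated with PGE2 lay between both other levels, above all resting libraries and below all untreated stimulated ones. Against rest with PGE2 their log2 change was 1.53 (limma adjusted p = 1.02e-08). The log2 change on untreated stimulation was 2.38 ± 0.17 in the KO (limma adjusted p = 1.27e-14) and 2.30 ± 0.16 in WT (limma adjusted p = 2.61e-15), where the stimulated mean was 4.99 times the resting one. The log2 change of PGE2 against untreated cells in the stimulated KO was -0.21 ± 0.16 (limma adjusted p = 0.999). PGE2 lowered peak 1 in stimulated WT cells with a log2 change of -0.83 ± 0.16 (limma adjusted p = 4.94e-05). The KO minus WT difference was 0.62 ± 0.22 (limma adjusted p = 0.0429). That last call was lost in 13 of 16 fits that each left out 1 library, all but those without KO PGE2 stimulated replicate 1 or 2 or WT PGE2 stimulated replicate 2 (adjusted p up to 0.137), and with library total scaling (0.0625).

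At the Klrc1 promoter, peak 4 (chr6:129679950-129680967) is the more accessible of the 2 promoter peaks. Klrc1 peak 4 had 704, 570.3, 692 and 611 normalised counts in stimulated KO cells with PGE2 and 746, 569, 688 and 591 in untreated ones. At rest, Klrc1 peak 4 had 476, 385, 452 and 374 in KO cells with PGE2 and 432, 459 and 401 in untreated ones. Every stimulated KO library exceeded the resting ones. WT values of Klrc1 peak 4 were 712, 654, 588 and 508 normalised counts in stimulated cells with PGE2 and 713, 633, 693 and 711 in untreated ones. Without stimulation, Klrc1 peak 4 had 558, 447 and 490.1 in WT cells with PGE2 and 449, 476, 369 and 424 in untreated ones. Untreated WT states did not overlap, and those with PGE2 did. The stimulation change was 0.58 ± 0.11 in untreated KO cells (limma adjusted p = 3.04e-05), 0.68 ± 0.10 in untreated WT cells (limma adjusted p = 5.35e-07) and 0.30 ± 0.11 in WT cells with PGE2 (limma adjusted p = 0.0621). The PGE2 change of this peak in stimulated minus resting WT cells was -0.38 ± 0.15 (limma adjusted p = 0.0596). Peak 3, which holds part of the printed promoter, and the intronic peak 2 (chr6:129673089-129673527) were called in none of the 16 comparisons. NKG2A and CD94 form 1 receptor, and Klrc1 peak 4 and the Klrd1 promoter peak 2 moved in opposite directions on untreated stimulation in both genotypes.

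Klrg1 peaks split by position. In untreated WT cells stimulation raised the lowest-coordinate peak 1 (chr6:122257726-122258449) and peaks 8 (chr6:122291611-122292237) and 9 at the other end, and lowered peaks 4 (chr6:122268711-122269608), 6 (chr6:122274213-122275049) and 7 (chr6:122284277-122285193) in and near the gene. The calls at the smaller ones were lost without single libraries. They were WT untreated resting replicate 4 for peak 8, WT untreated resting replicate 3 for peaks 4 and 6, WT untreated stimulated replicate 2 or 3 for peak 4, and replicate 4 of that group for peak 6 (adjusted p up to 0.0942). The peak 8 call was also lost under quantile normalisation (0.127). Summed over the 9 peaks, counts ranged from 2370.2 ± 165 in stimulated WT cells with PGE2 to 3007 ± 241 in stimulated WT untreated cells. Peak 9 had 1360.3, 1378, 981 and 1215 normalised counts in stimulated KO cells with PGE2 and 1248, 1359.8, 1012 and 1200.1 untreated. At rest, Klrg1 peak 9 had 758, 811, 795 and 906 in KO cells with PGE2 and 727, 788 and 881 in untreated ones. Only stimulation separated the KO libraries. WT values of Klrg1 peak 9 were 697, 851, 674 and 757 normalised counts in stimulated cells with PGE2 and 1334, 1555, 1269.8 and 1237 in untreated ones. Without stimulation, Klrg1 peak 9 had 659.6, 655 and 679.8 in WT cells with PGE2 and 780.4, 826, 819.8 and 788 in untreated ones. Untreated stimulated WT libraries lay above all other WT libraries, and stimulated ones with PGE2 overlapped the resting ones. Stimulation raised peak 9 with a log2 change of 0.59 ± 0.10 in untreated KO cells (limma adjusted p = 7.11e-06) and with a log2 change of 0.74 ± 0.10 in untreated WT cells (limma adjusted p = 1.99e-08), while with PGE2 the WT change was 0.16 ± 0.10 (limma adjusted p = 0.331). The PGE2 change in stimulated cells was 0.03 ± 0.10 in the KO (limma adjusted p = 0.999) and -0.86 ± 0.10 in WT (limma adjusted p = 3.15e-09), a KO minus WT difference of 0.89 ± 0.13 (limma adjusted p = 7.76e-06).

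Peak 1 of Klrg1, 12.1 kb from the gene, was low at rest except with PGE2 in WT. Klrg1 peak 1 had 117, 87.1, 111 and 121 normalised counts in stimulated KO cells with PGE2 and 113, 122, 137 and 107 in untreated ones. At rest, Klrg1 peak 1 had 31.6, 34.2, 63.5 and 71.6 in KO cells with PGE2 and 31.7, 47.1 and 57.0 in untreated ones. Stimulated KO libraries were all above the resting ones. WT values of Klrg1 peak 1 were 85.5, 93.7, 63.2 and 103 normalised counts in stimulated cells with PGE2 and 100.2, 89.5, 111 and 134 in untreated ones. Without stimulation, Klrg1 peak 1 had 82.5, 84.1 and 89.5 in WT cells with PGE2 and 35.3, 61.2, 37.3 and 59.7 in untreated ones. Resting WT libraries with PGE2 lay above every untreated one and overlapped the stimulated ones. The PGE2 change at rest in WT was 0.85 ± 0.24 (limma adjusted p = 0.012), lost without WT untreated resting replicate 1 (adjusted p 0.0584), and the KO minus WT difference of the resting PGE2 changes was -0.75 ± 0.34 (limma adjusted p = 0.228). Untreated stimulation raised peak 1 with a log2 change of 1.42 ± 0.24 in KO cells (limma adjusted p = 4.91e-06) and with a log2 change of 1.18 ± 0.22 in WT cells (limma adjusted p = 2.35e-05).

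The Klrg1 promoter peak 7 lies 1.44 kb from the gene. Klrg1 peak 7 had 421, 404, 327 and 337 normalised counts in stimulated KO cells with PGE2 and 377, 443, 317 and 318 in untreated ones. At rest, Klrg1 peak 7 had 535, 533, 466 and 455 in KO cells with PGE2 and 486, 485 and 473 in untreated ones. Stimulated KO libraries were the lower ones. WT values of Klrg1 peak 7 were 448, 489, 412 and 396 normalised counts in stimulated cells with PGE2 and 473, 438, 358 and 365 in untreated ones. Without stimulation, Klrg1 peak 7 had 577, 457 and 508 in WT cells with PGE2 and 605, 597, 558 and 477 in untreated ones. The untreated WT states did not overlap, and stimulation lowered the peak with a log2 change of -0.46 ± 0.11 (limma adjusted p = 0.000475). Its PGE2 change was 0.10 ± 0.11 in stimulated WT cells (limma adjusted p = 0.496) and -0.12 ± 0.12 in resting ones (limma adjusted p = 0.58). Peaks 2 (chr6:122258737-122259665), 3 (chr6:122262540-122263020) and 5 (chr6:122270006-122270720) were not called on stimulation in any group, and peaks 3 and 5 were called in none of the 16 comparisons.

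**Figure D4:**
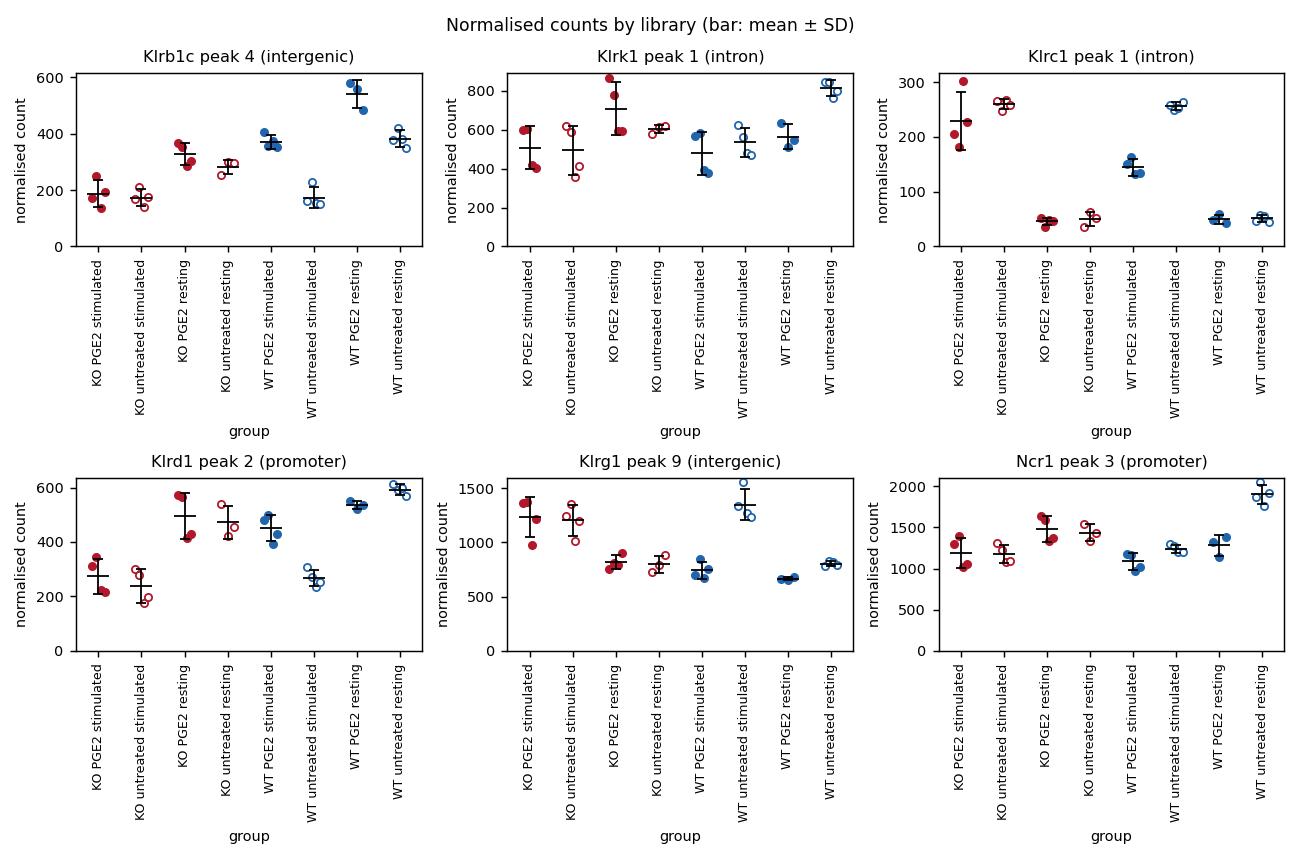
Normalised counts in each library (points) at 1 peak per gene in the 8 groups (x axis), with KO in red, WT in blue, filled points for PGE2 and open points for untreated cells, and bars for mean ± SD. Klrc1 peak 1 and Klrg1 peak 9 are high in stimulated cells. In stimulated WT cells with PGE2, Klrc1 peak 1 lies between the resting and untreated stimulated levels, and Klrg1 peak 9 overlaps the resting libraries. The Ncr1 promoter peak 3 is highest in resting WT untreated cells.

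Genes of the same system were read beside the receptors. In the receptor relatives of the same gene cluster, 9 of 11 genes had peaks, 43 in all. Of these, PGE2 raised 8 and lowered 8 in stimulated WT cells, raised 4 and lowered 11 in resting WT cells, and untreated stimulation raised 7 and lowered 23 in WT. As shares, PGE2 with stimulation raised 18.6% and lowered 18.6%, close to the 20.2% and 20.4% of all peaks. At rest the shares were 9.30% higher and 25.6% lower, against 10.9% and 4.03%, and on untreated stimulation 16.3% and 53.5%, against 28.9% and 27.4%. Their median PGE2 change at rest was -0.28, against -0.01 over all tested peaks. An intronic peak of Klrc2, the activating NKG2C gene next to Klrc1 (chr6:129651448-129652344), had 329.7 ± 42.7 normalised counts in stimulated WT cells with PGE2 and 615 ± 97.1 untreated, a log2 change of -0.89 ± 0.13 (limma adjusted p = 7.08e-07). At Klri2, an intronic peak (chr6:129736205-129736807) fell with PGE2 there, with a change of -0.98 ± 0.14 on the log2 scale (limma adjusted p = 2.41e-07), and a distal peak of Klrb1f (chr6:129030030-129031129) rose, with a log2 change of 1.37 ± 0.20 (limma adjusted p = 6.05e-07). Gene assignment within these families of similar genes is uncertain.

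Among the adaptors and kinases that carry the receptors' signals, all 11 genes had peaks, 62 in all. PGE2 raised 15 and lowered 14 in stimulated WT cells, raised 5 and lowered 9 in resting ones, and untreated stimulation raised 17 and lowered 27 in WT. The shares with PGE2 and stimulation, 24.2% and 22.6%, were near the 20.2% and 20.4% of all peaks. Those at rest were 8.06% and 14.5%, against 10.9% and 4.03%, and those on untreated stimulation 27.4% and 43.5%, against 28.9% and 27.4%. An intronic peak of Syk, a kinase recruited by ITAM adaptors (chr13:52599693-52600814), had 166.2 ± 29.9 normalised counts in stimulated WT cells with PGE2 and 442 ± 17.8 untreated, a log2 change of -1.42 ± 0.13 (limma adjusted p = 4.55e-11). Zap70 encodes a relative of Syk, and an intronic peak of it (chr1:36768637-36769381), fell with PGE2, with a log2 change of -1.64 ± 0.15 (limma adjusted p = 8.04e-11). Ptpn6 encodes the phosphatase SHP-1 used by inhibitory receptors, and an exonic peak of it (chr6:124723038-124724984) fell, with a log2 change of -0.95 ± 0.09 (limma adjusted p = 8.95e-11).

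Of the ligand genes, 8 of 12 had peaks, 24 in all. PGE2 raised 4 and lowered 4 in stimulated WT cells, raised 7 and lowered 2 in resting ones, and untreated stimulation raised 9 and lowered 4 in WT. These are 16.7% each with PGE2 and stimulation, against 20.2% and 20.4% of all peaks, 29.2% and 8.33% at rest, against 10.9% and 4.03%, and 37.5% and 16.7% on untreated stimulation, against 28.9% and 27.4%. A promoter peak of H2-T23, which encodes the Qa-1 ligand of CD94 and NKG2A (chr17:36031560-36033033), had 540.3 ± 38.9 normalised counts in stimulated WT cells with PGE2 and 782 ± 30.0 untreated, a log2 change of -0.54 ± 0.08 (limma adjusted p = 1.12e-06). Ulbp1 encodes an NKG2D ligand, and a promoter peak of it (chr10:7472713-7474718) fell, with a change of -0.49 ± 0.07 on the log2 scale (limma adjusted p = 1.72e-06), and an intronic peak of Raet1e (chr10:22301769-22303112) rose, with a log2 change of 0.96 ± 0.13 (limma adjusted p = 1.02e-07). Of the other activating receptors, 8 of 9 genes had peaks, 31 in all, of which PGE2 raised 4 and lowered 11 in stimulated WT cells, raised 1 and lowered 4 at rest, and untreated stimulation raised 12 and lowered 6. Here the shares were 12.9% and 35.5% with PGE2 and stimulation, against 20.2% and 20.4% of all peaks. They were 3.23% and 12.9% at rest, against 10.9% and 4.03%, and 38.7% and 19.4% on untreated stimulation, against 28.9% and 27.4%. The 3 with the smallest p were all of Crtam, an adhesion receptor, whose promoter peak (chr9:41006520-41008448) had 491 ± 20.2 normalised counts with PGE2 and 1353 ± 85.1 untreated (log2 change -1.46 ± 0.11, limma adjusted p = 7.55e-13).

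Peaks elsewhere in the genome with the pattern most like each receptor promoter were taken by Pearson's r over the 8 group means, which share the libraries, so that r is a description only. For Klrb1c peak 7 they were peaks of Ly6c2 (r = 0.994), Neat1 (0.991) and Dbp (0.990). For Klrk1 peak 3 they were Trim7 (r = 0.980), 1810026B05Rik (0.980) and Sp4 (0.975). For Ncr1 peak 3 they were Grap2 (r = 0.980), Dad1 (0.977) and Tle3 (0.971). Klrd1 peak 2 was most like peaks of Sptbn1 (r = 0.999), Dtnb (0.998) and Sun2 (0.998). Klrc1 peak 4 was most like peaks of Ptk2b (r = 0.999), Mrpl19 (0.998) and Arhgap19 (0.998). Klrg1 peak 7 was most like peaks of Eif2ak3 (r = 0.997), Fcgr2b (0.995) and Rgs12 (0.995).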

How the data were processed

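ATAC-seq libraries of cultured NK cells were compared in 8 groups. Per the submitters' processing notes, the authors used Trimmomatic 0.39, Bowtie2 2.4.1, MACS2 2.2.7.1, DESeq2 (version not given) and mm10. Duplicate handling and the transposase offset are not given here. The authors deposited a signal, the DESeq2-normalised read count, for each peak of 1 atlas shared by all libraries, which removes most depth differences but also any change shared by most peaks. The peaks were taken as assigned to genes by the authors. The members and gene lists were chosen with earlier results of these data known. Log2(normalised count + 1) was fitted with limma 3.58.1 (R 4.3.3, trend, 1 mean per group, no replicate block) over the 38525 of 38526 peaks with a mean of at least 10. Tests were two-sided, with Benjamini-Hochberg adjustment within each of 16 comparisons. The fit was tested on simulated data. Values per library are given for the promoter peak with the highest mean and for the peak with the largest called change in each of 3 WT comparisons. Alternatives were another pseudocount, filters, scalings, a replicate block, fewer groups and leaving out each library. Sequences came from RefSeq (GRCm38.p6). Tables were handled with Python 3.11.15, pandas 2.3.3 and numpy 2.4.6, and plots drawn with matplotlib 3.10.9.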

Additional observations from a re-analysis of the deposited data

Results flagged for a closer look

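In 2 of 90 groups of 4 libraries, 1 library stood far from the other 3 at a receptor peak, where chance gives about 1 in 20 groups. At Klrb1c peak 4, WT untreated stimulated replicate 2 was the highest of its group, with 227.7 normalised counts. At Ncr1 peak 4, KO PGE2 stimulated replicate 2 was the highest of its group, with 367.6 normalised counts.

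The PGE2 change differed between genotypes at rest, by a test of the KO change minus the WT change, at 4 of the peaks given by library. The log2 differences were 0.68 at Ncr1 peak 2 (limma adjusted p = 0.0225), 0.61 at Ncr1 peak 3, 0.78 at Klrd1 peak 1 and 0.75 at the intronic Klrk1 peak 1 (limma adjusted p = 0.0481). Both groups without replicate 1, resting KO untreated and resting WT with PGE2 cells, enter this contrast. With the replicate number as a block the differences were smaller, 0.59, 0.55, 0.68 and 0.58 in the same order, and all stayed called. At Ncr1 peak 3 and Klrd1 peak 1 the call held without any 1 library. At Ncr1 peak 2 it was lost without KO untreated resting replicate 2 or 4 or WT PGE2 resting replicate 3 (adjusted p up to 0.0792), and under quantile normalisation (0.0705). At Klrk1 peak 1 it was lost in 11 of 14 fits that left out 1 library, all but those without KO PGE2 resting replicate 3 or 4 or WT PGE2 resting replicate 2 (adjusted p up to 0.143), and under quantile normalisation (0.0800). With stimulation the KO minus WT differences were 0.89 at Klrg1 peak 9, -1.02 at Klrb1c peak 4, -0.54 at the Klrd1 promoter peak 2 and 0.62 at Klrc1 peak 1.

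Within WT cells, the PGE2 change with stimulation differed from that at rest at 9 of the peaks given by library. At Ncr1 the log2 differences, stimulated minus resting, were 0.75 at peak 2 (limma adjusted p = 0.00229) and 0.38 at peak 3 (limma adjusted p = 0.0367). The call at peak 3 was lost without WT PGE2 stimulated replicate 1 or 2, WT untreated stimulated replicate 3 or 4, WT PGE2 resting replicate 3 or WT untreated resting replicate 2 or 4 (adjusted p up to 0.142). At Klrd1 they were 0.66 at peak 1, 0.90 at peak 2 and 0.99 at peak 5, and these 3 calls held without any 1 library. At Klrb1c peak 4 the difference was 0.61 (limma adjusted p = 0.0223), lost without WT PGE2 resting replicate 4 or WT untreated stimulated replicate 4 (adjusted p up to 0.0737). Negative differences were found at Klrg1 peak 1 (-1.19, limma adjusted p = 0.00677), Klrg1 peak 9 (-0.58, limma adjusted p = 0.0019) and Klrc1 peak 1 (-0.77, limma adjusted p = 0.0117). The call at Klrc1 peak 1 was lost without WT PGE2 resting replicate 3 (adjusted p 0.0546).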

How the results depend on the processing

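Each of the 35 peaks in each of 16 comparisons was recomputed under every alternative, and no called change reversed its direction. Of 142 calls, 4 were lost with library total scaling, 4 with only the compared groups and 15 with quantile normalisation, and 0 with a pseudocount of 5, a mean of at least 50 (139 calls tested), no filter or the replicate block. The calls gained were 13, 28, 14, 1, 0, 0 and 29 in that order. Over all fits that left out 1 library, 180 of 1273 calls were lost and 44 gained. Both scalings were chosen after seeing the data. Same-numbered libraries deviated together in part, with r of -0.02 to 0.53 over 99 pairs (median 0.06). Of these, 39 were over 0.1, against 26 of 294 pairs with different numbers (median -0.02, highest 0.23), and 26 of 30 libraries correlated best with their own number, a hint from the data. The labels do not say what a number stands for, and the reported fit used no block. Since the block lost 0 of the 142 calls and gained 29, the reported fit left uncalled some changes that the block fit called. With the replicate block, PGE2 lowered 11 peaks in resting WT cells, stimulation lowered 12 in WT cells with PGE2, and the KO was lower than WT at 5 peaks in untreated resting, 5 in PGE2 resting and 10 in PGE2 stimulated cells. Within only the compared groups, PGE2 lowered 14 in resting WT cells, stimulation with PGE2 raised 2 in WT, the untreated resting KO was lower at 9, and the KO minus WT PGE2 change at rest was positive at 10. With library total scaling these were 11 lower with PGE2 in resting WT, 3 higher on stimulation of WT with PGE2, 5 higher in the KO with PGE2 at rest and 2 positive KO minus WT PGE2 changes with stimulation. Quantile normalisation left 1 peak higher with PGE2 in resting WT cells and 0 lower in the untreated resting KO. The cause of these shifts was not tested.

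Leaving out each library in turn, PGE2 raised 1 to 2 and lowered 3 to 6 peaks in resting WT cells and lowered 2 to 6 in stimulated ones. Stimulation of WT cells with PGE2 raised 1 to 3 and lowered 2 to 5. The KO was lower than WT at 0 to 3 peaks in untreated resting cells, and higher at 0 to 2 and lower at 1 to 2 in resting cells with PGE2. The KO minus WT PGE2 change was positive at 3 to 8 peaks at rest, and positive at 1 to 5 and negative at 1 to 4 with stimulation. The planned count models and TMM scaling of reads were not run. With 3 or 4 libraries in a group, a missed threshold does not show that groups were alike.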
